A study of Mus musculus with 18 samples.

Results

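The 37 genes described here are lysosomal hydrolases, lysosomal membrane proteins and their partners, together with the TFEB family of transcription factors. They were picked by name from a list of lysosomal genes, out of the 50686 gene identifiers counted in mouse microglia. Earlier results of these data were known when they were chosen. By role they comprised 3 transcription factors, 7 membrane proteins, 3 soluble proteins that are not enzymes, 6 peptidases, 10 glycosidases, 4 sulfatases and sulfamidases, and 4 lipid hydrolases and thioesterases. All 37 passed the filter on low counts, which left 13447 genes for testing.

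Lysosomes are the acidic compartments in which cells break down proteins, glycans and lipids. Soluble hydrolases reach them mostly on mannose 6-phosphate receptors, and the limiting membrane is lined by glycoproteins such as LAMP1 and LAMP2. TFEB, TFE3 and MITF bind E-box motifs in the promoters of many lysosomal genes, and their entry into the nucleus is held back by mTORC1. Microglia, the resident macrophages of the brain, digest engulfed debris in lysosomes, and inherited loss of many of these enzymes causes storage diseases with brain disease.

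Messenger RNA was sequenced from primary microglia of C57BL/6 pups of postnatal day 2, shaken off cultures of dissociated forebrain. The 6 genotypes, each with 3 libraries, were wild type (WT), Tbk1+/-, Tak1ΔM/+, Tbk1+/-;Tak1ΔM/+ (called double heterozygotes below), Tbk1+/-;Ripk1D138N/D138N, and Tbk1+/-;Tak1ΔM/+;Ripk1D138N/+ (called triple mutants). Tbk1 and Tak1 (Map3k7) encode kinases of inflammatory signalling, and D138N is a substitution that removes the kinase activity of RIPK1. The labels do not explain ΔM. In the published study it stands for deletion in myeloid cells, so Tak1 would be lost from 1 allele in microglia and kept elsewhere in the animal. No label says whether the 3 libraries of a genotype are from different animals or cultures. Transcripts of Y-linked genes, which mark male cells, were at 107, 50.2 and 0 CPM (explained below) in WT. They were at 0, 42.9 and 0 CPM in Tbk1+/-;Ripk1D138N/D138N and 0, 43.7 and 61.5 CPM in the triple mutants. Within each of these genotypes the libraries therefore did not all hold the same mix of male and female cells. The p-values measure only the spread between libraries. How much of that spread is technical was not tested.

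Total counts ranged from 8016559 to 22989116 per library, and the fewest reads of any of the 37 genes in a library were 32, for Ctsk. All 15 microglial and macrophage markers were tested, and their summed level was 11853 to 12947 CPM (counts per 1e6 counts, after scaling by TMM, the trimmed mean of M values) in WT, 12496 to 13252 in the double heterozygotes and 12727 to 14460 in the triple mutants. Among those markers Ptprc (log2 fold change -0.82, adjusted p = 0.00171) and Itgam (-0.94, adjusted p = 0.00879) were lower in the double heterozygotes than in WT (edgeR's quasi-likelihood test). Only these 2 of the 15 had an adjusted p under 0.05, or 13.3%, against 3.9% lower among all genes tested. Of the 15, 9 had a fold change below 0, and the median log2 fold change was -0.05. Markers of border macrophages and monocytes summed to 923 to 1291 CPM in WT, 1183 to 1216 in the double heterozygotes and 918 to 1199 in the triple mutants, with Ly6c2 at 0 in most libraries. Oligodendrocyte markers gave 137 to 153, 168 to 171 and 136 to 171 CPM in the same order (Mog at 0 in most), and astrocyte markers 43.7 to 58.4, 24.02 to 33.1 and 28.4 to 70.7 CPM (Aqp4 and S100b at 0 in most). Neuronal markers gave 4.83 to 20.7, 6.37 to 8.48 and 2.56 to 12.4 CPM (Snap25, Syt1, Gad1 and Nefl at 0 in most), and fibroblast, mural and endothelial markers 15.4 to 63.6, 8.34 to 13.9 and 12.6 to 59.9 CPM (Lum and Rgs5 at 0 in most). The part of these other cells in the results was not tested. In bulk samples, fewer cells of a type and less RNA per cell cannot be told apart.

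The level of Tbk1 went against the labels in 5 of the 12 libraries labelled Tbk1+/-. It was 123, 107 and 115 CPM in the libraries labelled triple mutant and 130, 54.9 and 131 CPM in those labelled Tbk1+/-;Ripk1D138N/D138N, against 106, 104 and 149 CPM in WT. In the double heterozygotes it was 55.1, 56.4 and 66.0 CPM, and in Tbk1+/- 50.5, 65.6 and 57.1 CPM. Every direction drawn below from the triple mutants rests on the libraries that carry that label. Map3k7 was not called in any of the comparisons; between Tak1ΔM/+ and WT its log2 fold change was -0.62 (adjusted p = 0.561).

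Together the 37 genes took 2.62% to 3.32% of the counts of a library. The share was 2.92% ± 0.0554 in WT (SD, n = 3, as for all means below), 2.65% ± 0.0443 in Tbk1+/-, 3.15% ± 0.150 in Tak1ΔM/+, 2.90% ± 0.131 in the double heterozygotes and 3.03% ± 0.0535 in the triple mutants. The combined share therefore did not single out the double heterozygotes.

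Levels of different genes were compared per kilobase of exon. In WT the highest was Ctss, the cysteine protease cathepsin S that is typical of microglia, at 2559 ± 97.9 CPM per kilobase. Psap, the precursor of the saposins that help hydrolases reach sphingolipids, followed at 1252 ± 187 CPM per kilobase. Lamp1 (958 ± 67.3), Hexa (859 ± 93.3), the alpha subunit of beta-hexosaminidase A, and Grn (818 ± 154), which encodes progranulin, came next and lay within each other's spread. The lowest was Tfeb at 2.17 ± 0.533 CPM per kilobase, and Ids (3.74), the iduronate sulfatase, Mitf (4.33) and Ctsk (5.45 ± 1.18), cathepsin K, stood just above it. The genes that later differed between genotypes lay in the middle of this order, with Lamp2 at 199 ± 8.90, Man2b1 at 112 ± 9.32, Ppt1 at 102 ± 4.89, Glb1 at 54.8 ± 9.33 and Arsb at 14.1 ± 4.05 CPM per kilobase.

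**Figure D1:**
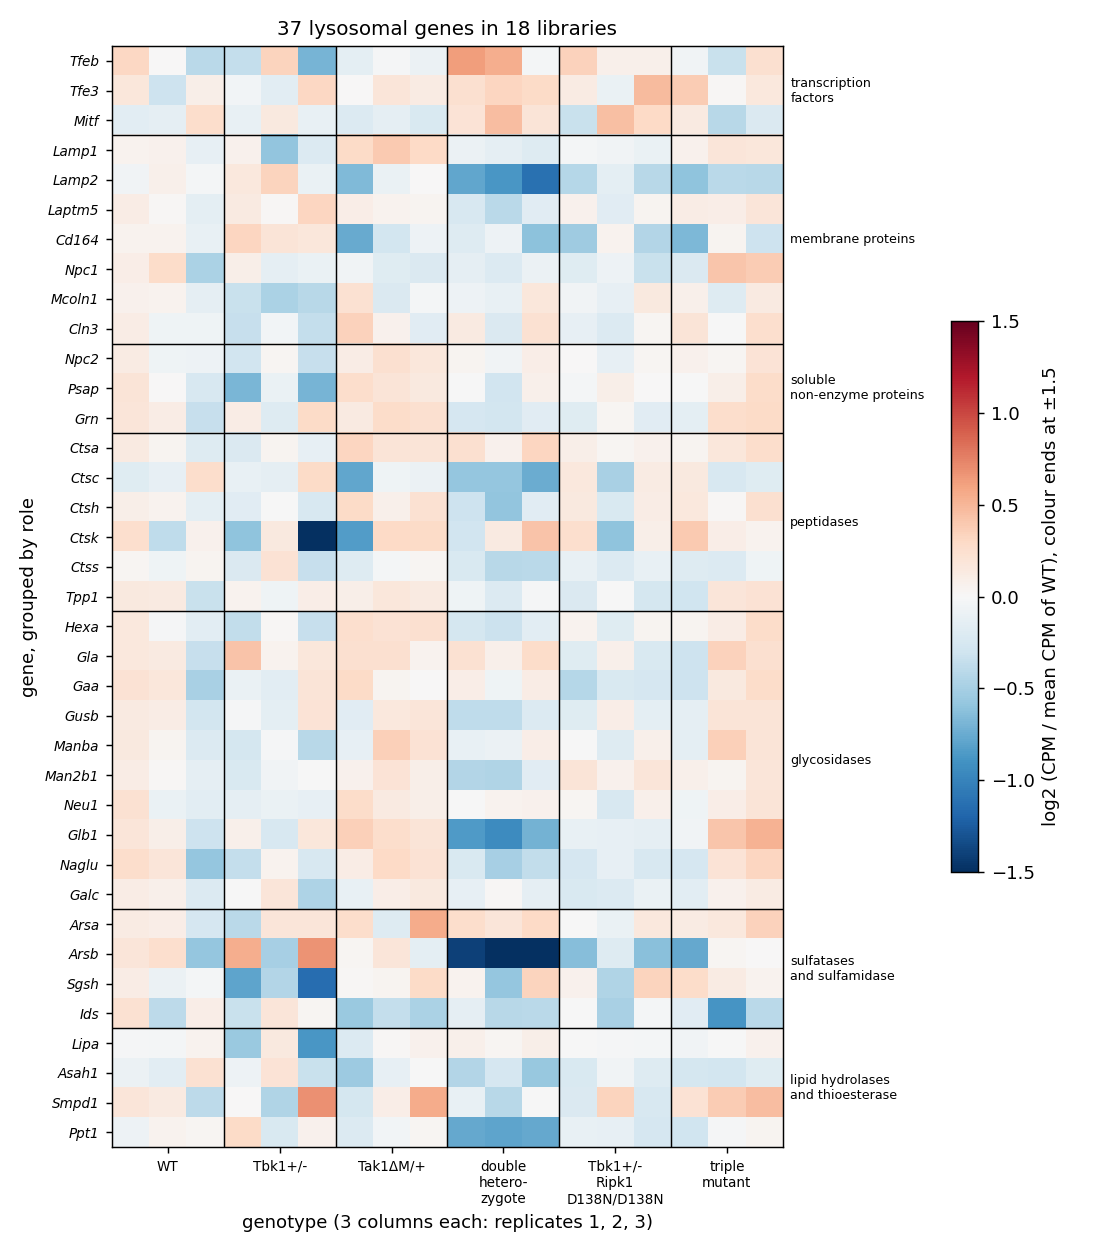
Each row is 1 of the 37 genes, grouped by role, and each column 1 of 18 libraries; the colour is the log2 ratio of CPM to the WT mean, and it saturates at the ends of the scale. Lamp2, Glb1, Arsb and Ppt1 are blue in all 3 double heterozygote libraries, whereas most rows stay pale.

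Across all 6 genotypes, 5 of the 37 genes differed at an adjusted p under 0.05 in edgeR's quasi-likelihood test (13.5%, against 7.18% of all genes tested). These were Glb1 (adjusted p = 0.00367), Lamp2 (0.00668), Ppt1 (0.00719), Arsb (0.0114) and Man2b1 (0.0423). The double heterozygotes had the lowest genotype mean for 15 of the 37 genes, Tbk1+/- for 12, Tbk1+/-;Ripk1D138N/D138N for 5, Tak1ΔM/+ for 3, WT for 2 and the triple mutants for 0. The same was not counted over all genes tested, so these counts do not show a trait particular to the 37 genes. The highest genotype mean was 3.46 times the lowest for Arsb, 2.22 times for Glb1, 2.08 times for Lamp2 and 1.78 times for Ppt1. At the other end it was 1.17 times for Galc, the galactosylceramidase lost in Krabbe disease.

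In the double heterozygotes, 4 of the 37 genes fell against WT and 0 rose. They were Lamp2, Glb1, Arsb and Ppt1, 1 each from the membrane proteins, glycosidases, sulfatases and lipid hydrolases. The share of 10.8% called lower compares with 3.9% called lower among all genes tested (2.16% higher, 6.07% in either direction). Their means were 36.3% to 58.4% of the WT means.

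Lamp2, at chrX:38401357-38456454 (GRCm38), encodes a heavily glycosylated membrane protein that takes part in the fusion of autophagosomes with lysosomes and, in 1 of its isoforms, in chaperone-mediated autophagy. It was 1839, 1999 and 1869.98 CPM in the WT libraries and 1109, 1036 and 879 CPM in the double heterozygotes. The groups did not overlap, and the double heterozygote mean was 53.0% of WT (log2 fold change -0.92, SE 0.16, adjusted p = 0.00337, edgeR). Counts are per gene, so the isoforms could not be told apart.

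Glb1, at chr9:114401076-114474898, encodes the beta-galactosidase that removes galactose from GM1 ganglioside and keratan sulfate. Its level was 187, 175 and 133 CPM in WT and 91.5, 85.7 and 101 CPM in the double heterozygotes. Every double heterozygote library lay below every WT library, with a mean of 56.2% of WT (log2 fold change -0.83, SE 0.16, adjusted p = 0.00492, edgeR).

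Arsb, at chr13:93771630-93943016, encodes arylsulfatase B, which removes sulfate from dermatan and chondroitin sulfate. The WT libraries had 97.1, 102 and 57.3 CPM, and the double heterozygotes 32.3, 30.3 and 30.3 CPM. This was the largest fall among the 37 genes: the mean was 36.3% of WT (log2 fold change -1.46, SE 0.28, adjusted p = 0.00545, edgeR), with no overlap. The library chemistry does not mark strand, and 32.27% of the exon length of Arsb is shared with the antisense transcript Gm26527 and 7.67% with Gm47210, so reads of these could not be told apart in those stretches.

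Ppt1, at chr4:122836242-122859175, encodes the thioesterase that strips fatty acids from S-acylated proteins and whose loss causes infantile neuronal ceroid lipofuscinosis. It was 356, 389 and 383 CPM in WT and 221, 217 and 221 CPM in the double heterozygotes. The double heterozygote values were close together (SD 2.11) and all below WT, at 58.4% of its mean (log2 fold change -0.78, SE 0.13, adjusted p = 0.00217, edgeR). Only 3.51% of its exon length overlaps another gene, Cap1.

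All 4 calls held when any 1 of the 6 libraries was left out, with adjusted p of at most 0.0257 for Lamp2, 0.0286 for Glb1, 0.0358 for Arsb and 0.0157 for Ppt1 (edgeR), and without the 5 libraries whose Tbk1 level went against the label. The share of mitochondrial transcripts also differed, at 1.24% ± 0.499 of counts in WT and 0.463% ± 0.0824 in the double heterozygotes. The groups did not overlap in it (0.671% to 1.62% and 0.367% to 0.512%), so that share and the genotype cannot be told apart here. With that share as a covariate, Lamp2 (log2 fold change -0.66, adjusted p = 0.0239) and Ppt1 (-0.65, adjusted p = 0.0235) kept the call, and Glb1 (-0.69, adjusted p = 0.0603) and Arsb (-1.03, adjusted p = 0.0765) did not (edgeR).

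**Figure D2:**
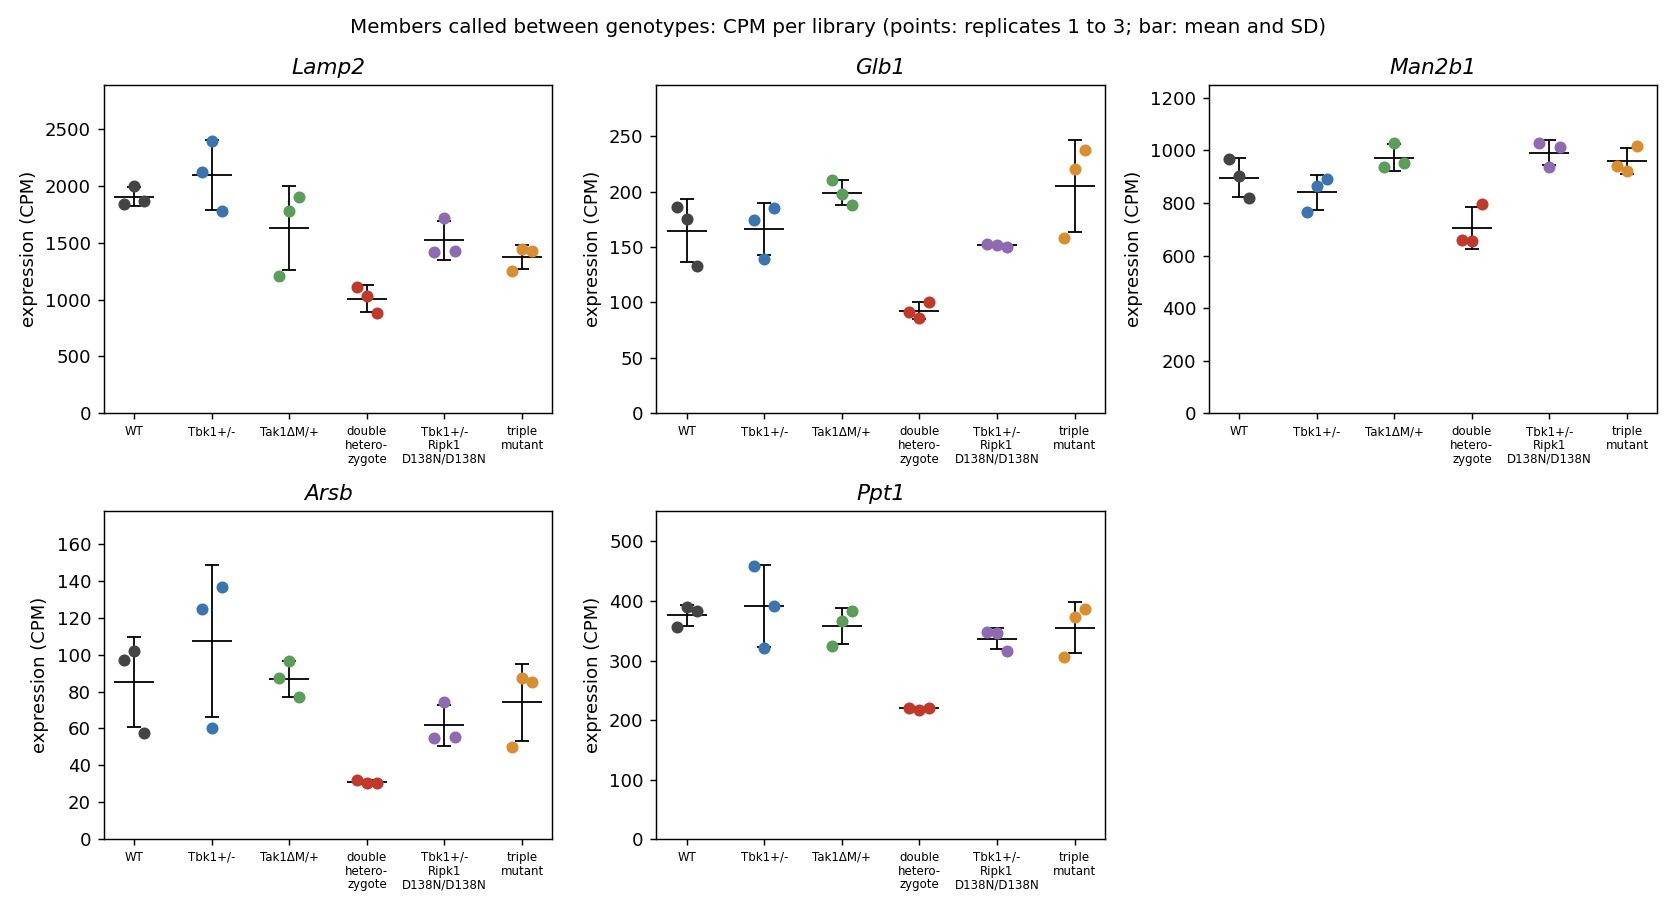
CPM of the 5 genes called in the overall test, by genotype; points are libraries, the long bar is the mean and the error bar the SD of 3 libraries. For Lamp2, Glb1, Arsb and Ppt1 the 3 double heterozygote points lie below all 3 WT points, and for Glb1, Arsb and Ppt1 the libraries labelled triple mutant lie above the double heterozygotes.

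Man2b1, the fifth gene of the overall test, encodes the lysosomal alpha-mannosidase that trims glycans of glycoproteins (chr8:85083270-85098282). It had 967, 904 and 818 CPM in WT and 659, 654 and 795 CPM in the double heterozygotes. The groups did not overlap, but the difference from WT missed the threshold (log2 fold change -0.35, SE 0.11, adjusted p = 0.0640, edgeR). It passed in DESeq2 and in limma-voom.

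None of the other 32 genes was called against WT by edgeR in its main setting. DESeq2 also called Ctsc and Ctss. In other settings edgeR called Ctsc without the low-count filter, and Ctsc and Ctss with only these 2 genotypes in the fit. It called Naglu without WT replicate 3, and Gusb and Naglu with the level of Y-linked genes as a covariate. Of the 37, 25 had a fold change below 0 in the double heterozygotes (67.6%, against 49.6% of all genes tested), and the median log2 fold change was -0.14, against 0.00 for all genes tested. The 3 libraries lay wholly below WT for 10 of the 37 genes and wholly above for 2, and the same happened for 14.4% and 15.2% of all genes tested. Besides the 5 genes above, the 10 were Laptm5, a lysosomal membrane protein of blood-derived cells, the peptidases Ctsc, Ctsh and Ctss, and the acid ceramidase Asah1. The 2 above WT were Tfe3 and Arsa, arylsulfatase A. At an unadjusted p under 0.05 there were 11 of 37, and 20.2% of all genes tested.

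By role, the median log2 fold change against WT was -0.14 for the membrane proteins, -0.07 for the soluble proteins that are not enzymes, -0.22 for the peptidases, -0.16 for the glycosidases, -0.16 for the sulfatases and -0.29 for the lipid hydrolases. It was 0.29 for the transcription factors. Ctsc, cathepsin C, which activates serine proteases, had the largest difference that was not called. It was 934, 971 and 1265 CPM in WT and 704, 708 and 632 CPM in the double heterozygotes (log2 fold change -0.63, adjusted p = 0.072, edgeR). Lipa, the acid lipase that releases cholesterol from its esters, lay at 2231, 2226 and 2342 CPM in WT and 2398, 2319 and 2403 CPM in the double heterozygotes, with overlap of the groups.

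**Figure D3:**
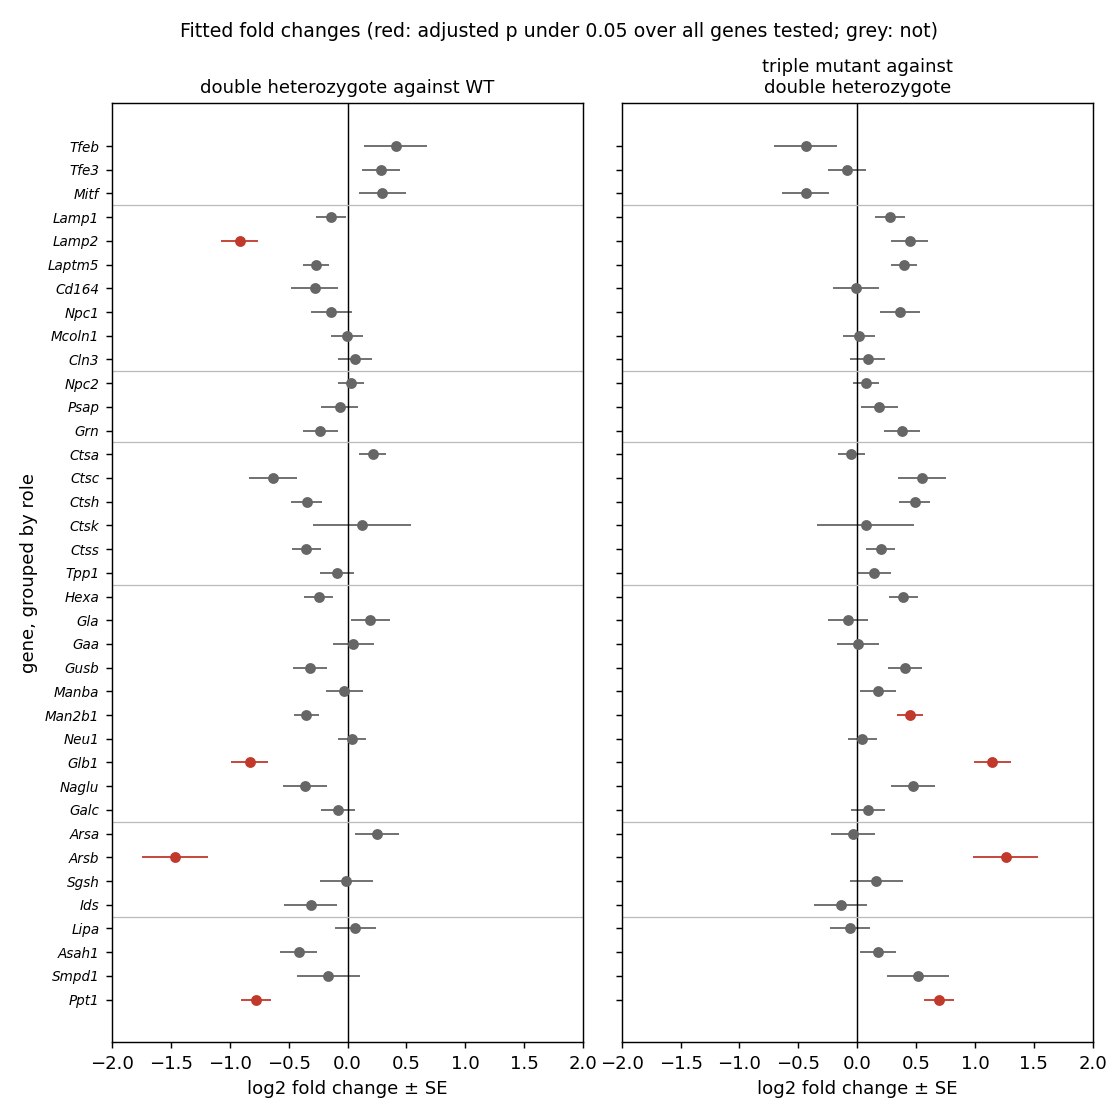
Log2 fold change ± SE of each of the 37 genes, for the double heterozygotes against WT (left) and for the libraries labelled triple mutant against the double heterozygotes (right); red marks an adjusted p under 0.05. Lamp2, Glb1, Arsb and Ppt1 are red on the left, and Man2b1, Glb1, Arsb and Ppt1 are red on the right; the panels share the double heterozygote libraries.

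The libraries labelled triple mutant differ by label from the double heterozygotes by 1 Ripk1 D138N allele, but their Tbk1 level also differed, at 107 to 123 CPM against 55.1 to 66.0 CPM. Transcripts of Y-linked genes summed to 0, 43.7 and 61.5 CPM in the libraries labelled triple mutant and 75.9 to 99.5 CPM in the double heterozygotes, without overlap. The Ripk1 allele, the Tbk1 level and the share of male cells cannot be told apart here. With the level of Y-linked genes as a covariate, the 4 calls given next were kept (adjusted p of at most 0.0206, edgeR). Against the double heterozygotes, 4 of the 37 genes rose and 0 fell: Man2b1, Glb1, Arsb and Ppt1. That is 10.8%, against 1.84% called higher among all genes tested (0.617% lower, 2.45% in either direction). This comparison and the preceding one share the double heterozygote libraries, so their opposite directions are not independent. Of the 15 microglial and macrophage markers, 2 were called higher and 0 lower in the triple mutants than in the double heterozygotes (13.3% higher). Their median log2 fold change was 0.20. The part of that difference in the results was not tested.

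Glb1 had 159, 220.2 and 237 CPM in the libraries labelled triple mutant, 222% of the double heterozygote mean of 92.6 ± 7.55 CPM (log2 fold change 1.15, SE 0.16, adjusted p = 0.000754, edgeR). All 3 lay above the double heterozygotes, and the call held without any 1 of the 6 libraries (adjusted p of at most 0.00961). Ppt1 had 306, 373 and 386 CPM, 162% of 219.6 ± 2.11 CPM (log2 fold change 0.69, SE 0.13, adjusted p = 0.00757). It lost the call without triple mutant replicate 2 (adjusted p = 0.0546) or 3 (adjusted p = 0.0637).

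Arsb had 50.0, 87.1 and 85.4 CPM in these libraries, 240% of the double heterozygote mean of 30.98 ± 1.14 CPM (log2 fold change 1.26, SE 0.28, adjusted p = 0.0209, edgeR). All 3 were above the double heterozygotes. The call was lost without any 1 of the double heterozygote replicates (adjusted p = 0.0828, 0.0892 and 0.0849 without replicate 1, 2 and 3), without triple mutant replicate 2 (0.113) or 3 (0.111), and in limma-voom (0.0698). Man2b1 had 942, 919 and 1015 CPM, 136% of 703 ± 80.0 CPM (log2 fold change 0.45, SE 0.11, adjusted p = 0.0346, edgeR). Its call was lost without double heterozygote replicate 1 (adjusted p = 0.177) or 2 (0.161), without triple mutant replicate 2 (0.0935) or 3 (0.177), with no low-count filter (0.0846) and with only these 2 genotypes in the fit (0.0537).

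Lamp2, called against WT in the double heterozygotes, had 1252, 1441 and 1430.01 CPM in the libraries labelled triple mutant, all above the double heterozygotes and all below WT. It was called in neither comparison of these libraries, with a fold change against the double heterozygotes close to that of Man2b1 (log2 fold change 0.45, SE 0.16, adjusted p = 0.157 against the double heterozygotes; -0.47, adjusted p = 0.410 against WT; edgeR). Mitochondrial transcripts took 0.839% ± 0.406 of counts in the triple mutants. With that share as a covariate the 4 genes kept their calls against the double heterozygotes, with adjusted p of 0.00202 for Glb1, 0.0132 for Ppt1, 0.0461 for Arsb and 0.0444 for Man2b1.

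Over all 37 genes, the median log2 fold change of the triple mutants against the double heterozygotes was 0.18, against 0.00 over all genes tested, and 9 of the 37 were below 0. The 3 libraries lay wholly above the double heterozygotes for 14 of the 37 genes and wholly below for 1, Mitf, compared with 12.8% and 11.4% of all genes tested. By role the median was 0.35 for the lipid hydrolases, 0.28 for the glycosidases, 0.28 for the membrane proteins, 0.17 for the peptidases, 0.06 for the sulfatases and -0.44 for the transcription factors.

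The double heterozygotes were also set against each single heterozygote; both comparisons again use the same double heterozygote libraries. Against Tak1ΔM/+, 7 of the 37 genes fell and 0 rose (18.9%, against 2.05% called lower and 0.736% higher among all genes tested, 2.79% in either direction). Glb1 fell to 92.6 ± 7.55 from 199 ± 11.2 CPM (log2 fold change -1.10, adjusted p = 0.00139), Arsb to 30.98 ± 1.14 from 86.9 ± 9.73 CPM (-1.49, 0.00789) and Ppt1 to 219.6 ± 2.11 from 358 ± 29.6 CPM (-0.70, 0.00604) in edgeR's test, with no overlap. These 3 calls held without any 1 library. Transcripts of Y-linked genes, which mark male cells, summed to 75.9 to 99.5 CPM in the double heterozygotes and 0 to 3.02 CPM in Tak1ΔM/+, so sex and genotype cannot be told apart in this comparison.

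Lamp2, Ctsh, Hexa and Man2b1 made up the other 4 calls against Tak1ΔM/+, and each was lost on leaving out single libraries. Lamp2 (log2 fold change -0.69, adjusted p = 0.0245, edgeR) lost the call without Tak1ΔM/+ replicate 2 (0.113) or 3 (0.148) or without double heterozygote replicate 1, 2 or 3 (0.0599, 0.0806 and 0.116). Ctsh, cathepsin H, had 244, 209.9 and 234 CPM in Tak1ΔM/+ and 162, 132 and 177 CPM in the double heterozygotes (-0.54, 0.0352). It lost the call without Tak1ΔM/+ replicate 1, 2 or 3 (0.0660, 0.0528 and 0.105) or double heterozygote replicate 1 or 2 (0.108 and 0.163), and with the level of Y-linked genes as a covariate (0.0767). Hexa had 2038, 1995 and 2021 CPM against 1432, 1368 and 1539.9 CPM (-0.48, 0.0421), and lost the call without any 1 of the 6 libraries (adjusted p between 0.0607 and 0.163). Man2b1 (-0.47, 0.0276) lost it without Tak1ΔM/+ replicate 2 (0.108) or 3 (0.0718) or double heterozygote replicate 1 (0.132) or 2 (0.122). Without the 5 libraries whose Tbk1 level went against the label, 3 of the 7 calls were left, and 4 once the mitochondrial share entered the fit.

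Against Tbk1+/-, 6 of the 37 genes fell and 1 rose (16.2% lower, against 8.24% lower and 6.44% higher among all genes tested, 14.7% in either direction). Lamp2 (log2 fold change -1.06, adjusted p = 0.000637), Glb1 (-0.84, 0.0019), Arsb (-1.79, 0.000778) and Ppt1 (-0.83, 0.000689) fell in edgeR's test, and these calls held without any 1 library. Laptm5 (-0.43, 0.0141) lost the call without Tbk1+/- replicate 3 (0.0508) or double heterozygote replicate 2 (0.0671). Ctsc (-0.66, 0.036) lost it without Tbk1+/- replicate 1 (0.0535) or 3 (0.144) or double heterozygote replicate 1, 2 or 3 (0.0818, 0.0763 and 0.126). Sgsh, the heparan N-sulfatase, was the 1 gene that rose (0.75, 0.0334), from 21.99, 27.9 and 17.2 to 39.5, 25.4 and 47.7 CPM. Its groups overlapped. The call was lost without Tbk1+/- replicate 1 (0.0955) or 3 (0.136) and without double heterozygote replicate 1 (0.0937) or 3 (0.181). It was also lost with only these 2 genotypes in the fit (0.0876). Of the exon length of Sgsh, 21.64% is shared with Card14 on the other strand, so reads of Card14 could not be told apart there.

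The mitochondrial share was 2.01% ± 0.191 in Tbk1+/- and 0.463% ± 0.0824 in the double heterozygotes, with no overlap of the groups. With that share as a covariate, 0 of the 7 calls against Tbk1+/- passed, with adjusted p of 0.0669 for Lamp2, 0.0680 for Ppt1, 0.101 for Arsb and 0.152 for Glb1 (edgeR). In that comparison the mitochondrial share and the genotype cannot be told apart. Markers of border macrophages and monocytes summed to 1475 to 1593 CPM in Tbk1+/- and 1183 to 1216 CPM in the double heterozygotes, with 2 of the 7 tested lower and 0 higher. Of the 15 microglial and macrophage markers 5 were lower and 1 higher in the double heterozygotes. The part of these differences in the results was not tested.

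In the single heterozygotes none of the 37 genes was called against WT by edgeR, DESeq2 or limma-voom. For Tbk1+/- the count at an unadjusted p under 0.05 was 4 of 37 (10.2% of all genes tested, of which 0.0521% were called). For Tak1ΔM/+ it was 1 of 37, Lamp1 (9.47% of all genes tested, 0.0149% called). Lamp1 had 2648, 2683 and 2355 CPM in WT and 3135, 3366 and 3143 CPM in Tak1ΔM/+, without overlap (log2 fold change 0.33, SE 0.13, adjusted p = 0.409, edgeR). Sgsh had 41.2, 35.6 and 37.2 CPM in WT and 21.99, 27.9 and 17.2 CPM in Tbk1+/-, also without overlap (-0.76, SE 0.23, adjusted p = 0.287).

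The 4 genes that fell in the double heterozygotes had small differences from WT in the single heterozygotes. In Tbk1+/- and Tak1ΔM/+, the log2 fold changes against WT were 0.14 and -0.22 for Lamp2, 0.01 and 0.27 for Glb1, 0.33 and 0.03 for Arsb, and 0.06 and -0.07 for Ppt1. Whether the double heterozygotes departed from the sum of these differences was tested by the interaction of Tbk1 and Tak1 heterozygosity. It was called for 3 of the 37 genes, all below the sum (8.11%, against 1.22% called lower among all genes tested, 1.75% in either direction). The interaction was -1.11 for Glb1 (SE 0.22, adjusted p = 0.0182), -1.82 for Arsb (SE 0.39, 0.0258) and -0.76 for Ppt1 (SE 0.18, 0.0376) on the log2 scale, and -0.83 for Lamp2 (SE 0.22, 0.0663, not called; edgeR).

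These interaction calls lay near the threshold. Glb1 lost the call without Tbk1+/- replicate 3 (adjusted p = 0.0506) or double heterozygote replicate 1 (0.0547) or 2 (0.0528). Arsb lost it on leaving out 8 of the 12 libraries, which were WT replicate 3, Tbk1+/- replicates 1 and 3, Tak1ΔM/+ replicates 2 and 3 and all 3 double heterozygotes (adjusted p between 0.0508 and 0.0762). Ppt1 lost it on leaving out 10 of the 12, all but Tbk1+/- replicate 2 and Tak1ΔM/+ replicate 1 (between 0.0704 and 0.112). None of the 3 passed once the mitochondrial share entered the fit as a covariate (adjusted p = 0.139 for Glb1, 0.204 for Arsb and 0.279 for Ppt1, edgeR). Sex was not balanced in this test. Y-linked genes summed to 0 to 107 CPM in WT, 59.8 to 187 in Tbk1+/-, 0 to 3.02 in Tak1ΔM/+ and 75.9 to 99.5 in the double heterozygotes. With that level as a covariate the 3 calls were kept (adjusted p = 0.00302 for Glb1, 0.00379 for Arsb and 0.0230 for Ppt1, edgeR).

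In the libraries labelled Tbk1+/-;Ripk1D138N/D138N, 0 of the 37 genes were called against WT by edgeR, DESeq2 or limma-voom, and 0 had an unadjusted p under 0.05 (5.12% of all genes tested did, and 0% were called). Against Tbk1+/-, edgeR called 0 of the 37, limma-voom 0 and DESeq2 1, Sgsh, with 7 at an unadjusted p under 0.05 (15.3% of all genes tested, 0.521% called). The triple mutants gave 0 calls against WT in edgeR, DESeq2 and limma-voom, with 1 of 37, Lamp2, at an unadjusted p under 0.05 (7.99% of all genes tested, 0% called). Ppt1 was 348, 346 and 316 CPM in Tbk1+/-;Ripk1D138N/D138N, and Glb1 was 153, 152 and 150.4 CPM. Arsb was 55.0, 74.5 and 55.5 CPM there, and its range overlapped that of WT.

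With all libraries in edgeR's test, the transcription factors of the TFEB family were not called in any comparison. Tfeb was called higher in the double heterozygotes than in Tbk1+/- when Tbk1+/- replicate 2 was left out. Tfeb, at chr17:47737030-47792419, was 15.3, 12.4 and 9.28 CPM in WT, 19.0, 18.03 and 12.1 CPM in the double heterozygotes and 11.9, 9.80 and 14.5 CPM in the triple mutants. Its groups overlapped (log2 fold change 0.41, SE 0.27, adjusted p = 0.429 for the double heterozygotes against WT, and -0.44, SE 0.27, adjusted p = 0.473 for the triple mutants against the double heterozygotes; edgeR). Tfe3, at chrX:7762560-7775202, was 107, 76.3 and 101 CPM in WT and 112, 118 and 115 CPM in the double heterozygotes, just above WT without overlap (0.28, SE 0.16, adjusted p = 0.350). Mitf, at chr6:97807052-98021349, was 23.9, 24.4 and 32.1 CPM in WT, 30.9, 37.1 and 30.7 CPM in the double heterozygotes and 29.5, 20.1 and 23.1 CPM in the triple mutants (0.29, SE 0.20, adjusted p = 0.446; then -0.44, SE 0.20, adjusted p = 0.299). For all 3 the double heterozygotes had a fold change above 0 against WT, while 25 of the 37 genes had one below 0. These are mRNA levels, and the activity of the proteins, which is set largely by phosphorylation, was not measured.

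**Figure D4:**
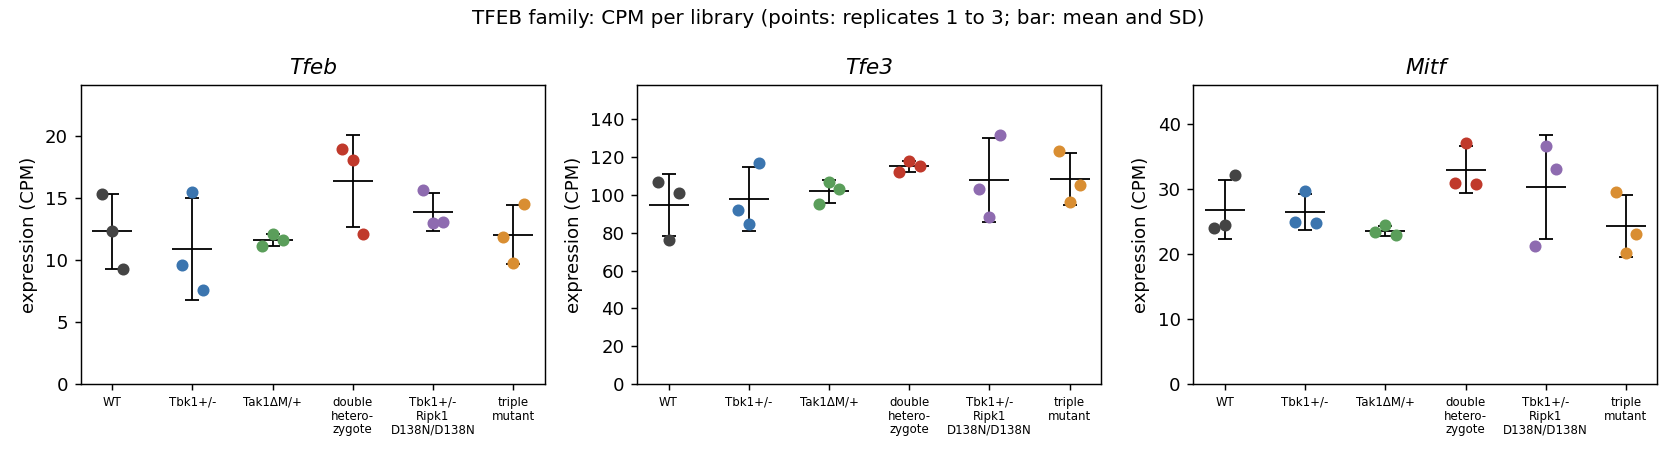
CPM of Tfeb, Tfe3 and Mitf by genotype; points are libraries, the long bar is the mean and the error bar the SD of 3 libraries. The double heterozygote mean is the highest of the 6 for each gene, and with all 18 libraries in edgeR's test none of the 3 genes was called in any comparison.

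The promoters were searched for the E-box core CACGTG and its extended form TCACGTGA, the letters at the centre of the element that TFEB family proteins bind. Windows ran from 250 bases before to 50 after the RefSeq start (GRCm38.p6) and were found for 34 of the 37 genes. Both motifs read the same on the 2 strands, and each extended match is also a core match. The core was present in 11 of the 34 (32.4%), against 8.09% of 27025 genes and 11.9% of the 9801 tested genes with a window. The extended form was present in 5 of the 34 (14.7%), against 1.12% and 2.29%. A match is a run of letters, not a shown site of binding. The core was found in Lamp1, Cd164, Mcoln1, Cln3, Ctsa, Gla, Gaa, Glb1, Naglu, Arsa and Sgsh, so of the 4 genes that fell in the double heterozygotes only Glb1 held it. The 60 bases before the start of those 4 genes are shown for comparison of that position, with the core in capitals, on the strand of the gene: Lamp2 from chrX:38456461-38456520 (minus strand), Glb1 from chr9:114401018-114401077 (plus), Arsb from chr13:93771619-93771678 (plus) and Ppt1 from chr4:122836167-122836226 (plus).
Lamp2: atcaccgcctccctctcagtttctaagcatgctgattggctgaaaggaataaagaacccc
Glb1: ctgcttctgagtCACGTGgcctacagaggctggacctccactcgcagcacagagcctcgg
Arsb: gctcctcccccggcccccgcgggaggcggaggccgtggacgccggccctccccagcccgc
Ppt1: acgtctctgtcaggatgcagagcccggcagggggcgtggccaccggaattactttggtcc

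The stretches around the core in 3 genes that were not called in the double heterozygotes against WT are shown beside them, each with the core in capitals: Gla, the alpha-galactosidase, from chrX:134601167-134601226 (minus strand), Cd164, the endolysosomal sialomucin, from chr10:41519386-41519445 (plus) and Naglu, the alpha-N-acetylglucosaminidase, from chr11:101069994-101070053 (plus).
Gla: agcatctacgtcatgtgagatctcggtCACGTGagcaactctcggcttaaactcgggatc
Cd164: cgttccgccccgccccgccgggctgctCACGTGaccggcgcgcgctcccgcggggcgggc
Naglu: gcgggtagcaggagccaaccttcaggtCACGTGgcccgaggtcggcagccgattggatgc

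Gla and Cd164 carry the extended form, and Naglu, like Glb1, the core only. Gla was 215, 212 and 151 CPM in WT and 225, 202 and 232 CPM in the double heterozygotes, Cd164 193, 194 and 172 against 163, 176 and 122 CPM, and Naglu 311, 295 and 173 against 222, 183 and 201 CPM, with overlap of the groups for each. Naglu was called lower without WT replicate 3 and with the level of Y-linked genes as a covariate. The motif was thus present both in a gene that fell and in genes that were not called.

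Other lysosomal genes were read from 5 further lists. In the double heterozygotes against WT, 3 fell and 2 rose of 29 other hydrolases and activators (median log2 fold change 0.00), 2 fell and 2 rose of 24 other membrane proteins and transporters (0.07), 0 fell and 1 rose of 18 subunits of the proton pump (0.04), 1 fell and 1 rose of 21 proteins of delivery to lysosomes (0.07), and 0 fell and 1 rose of 20 tested proteins of mTORC1 and folliculin (0.09). In the order of the lists, 17.2%, 16.7%, 5.56%, 9.52% and 5% were called in either direction, against 6.07% of all genes tested. The triple mutants against the double heterozygotes gave 3 higher and 0 lower, 0 higher and 1 lower, 0 and 0, 1 higher and 0 lower, and 0 higher and 1 lower for the same lists, or 10.3%, 4.17%, 0%, 4.76% and 5% called, against 2.45% of all genes tested.

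Among these, Gm2a and Tpcn2 were called in both comparisons and held without any 1 library. Gm2a, the activator protein that lifts GM2 ganglioside for beta-hexosaminidase A, fell from 175 ± 15.4 CPM in WT to 106 ± 6.42 in the double heterozygotes (log2 fold change -0.73, adjusted p = 0.0015) and was 192 ± 8.26 in the triple mutants (0.86 against the double heterozygotes, adjusted p = 0.000419; edgeR). Tpcn2, a cation channel of the endolysosomal membrane, went the other way, from 48.4 ± 5.67 to 96.0 ± 14.0 CPM (0.99, adjusted p = 0.0015) and 49.4 ± 3.94 in the triple mutants (-0.96, adjusted p = 0.0023). Gga2, a clathrin adaptor of the Golgi, rose from 23.8 ± 1.39 to 87.2 ± 6.92 CPM (1.88, adjusted p = 0.00902), and Tcirg1, a membrane subunit of the proton pump, from 311 ± 11.8 to 498 ± 31.3 CPM (0.68, adjusted p = 0.00906). Both calls held without any 1 library and were lost with the mitochondrial share as a covariate (adjusted p = 0.0987 and 0.0779).

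Other called genes of these lists depended on single libraries. The sorting receptor Sort1 (log2 fold change -0.73) and the mTORC1 subunit Rptor (0.74) lost the call against WT on leaving out 4 of the 6 libraries, which were WT replicates 1 and 2 and double heterozygote replicates 2 and 3 (adjusted p up to 0.0848 and 0.0974). Dnase2a (0.89), a DNase, lost it on leaving out 5 of 6, all but WT replicate 3 (up to 0.119). The hyaluronidase Hyal1 (1.16), the cathepsin Ctso (-0.64), Tmem55b (1.76) and the sialic acid exporter Slc17a5 (-0.46) lost it on leaving out any 1 of the 6 (up to 0.124, 0.126, 0.136 and 0.119; edgeR).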

How the data were processed

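Values were whole-number counts of reads per gene, as deposited by the authors. Per the submitters' processing notes, reads were aligned with STAR to mm10 and counted with featureCounts; the labels' protocol names RSEM instead. Versions, strand setting and annotation are not given in the sources used here. Of 50686 identifiers, 50462 matched GENCODE M21 (GRCm38), the source of gene positions.

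From the counts, CPM was computed with TMM factors. Genes were kept by filterByExpr (13447), and edgeR 4.0.16's quasi-likelihood test was fitted to all 18 libraries at once (R 4.3.3), without a replicate block. P-values were adjusted by Benjamini-Hochberg over the tested genes of each of 11 comparisons, and genes under 0.05 were called. Alternatives were DESeq2 1.42.0, limma-voom (limma 3.58.1), other filters and scaling, a replicate block and leaving out libraries. Total counts of 8016559 to 22989116 set the precision.

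The 37 genes and all other lists were chosen with earlier results of these data known. Full values are given for genes called in the double heterozygotes against WT or the triple mutants against them and for the TFEB family, and up to 4 called genes are named from each further list. Genes named beyond that rule were chosen after their values were seen. The values of 1 gene that this rule would name are not reported here.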

Additional observations from a re-analysis of the deposited data

Results flagged for a closer look

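For 3 of the 37 genes the interaction between Tbk1 and Tak1 heterozygosity was called. The genotypes of this test were not balanced in the level of Y-linked genes (values in the report). On the log2 scale the double heterozygotes lay below the sum of the single differences by an interaction of -1.11 for Glb1 (adjusted p = 0.0182), -1.82 for Arsb (adjusted p = 0.0258) and -0.76 for Ppt1 (adjusted p = 0.0376) in edgeR's test. In each of the 3 genes all 3 double heterozygote libraries lay below all 9 libraries of WT, Tbk1+/- and Tak1ΔM/+. The same libraries gave the calls, so this is not separate support, and it was not counted over all genes tested. With the mitochondrial share as a covariate, or without single libraries, the calls were lost (values in the report). Single libraries were not tested as outliers.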

How the results depend on the processing

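Direction was checked for 47 fold changes, and none was reversed under any alternative. They were those of the called genes of the 37 and of the called genes picked from the further lists. The TFEB family was included for the double heterozygotes against WT and the triple mutants against the double heterozygotes. The direction of other fold changes and of the medians was not checked. Counts of the 37 genes called moved by over 1.5 times as follows. DESeq2 gave 11 in the test across genotypes (5 in edgeR), 7 for the double heterozygotes against WT (4), 7 for the triple mutants against the double heterozygotes (4), 1 for Tbk1+/-;Ripk1D138N/D138N against Tbk1+/- (0) and 5 for the interaction (3). Limma-voom gave 8 across genotypes. Without the low-count filter there were 11 across genotypes, 1 for Tbk1+/- against WT and 3 for Tbk1+/-;Ripk1D138N/D138N against Tbk1+/-. Covariates were added after seeing the data. With the mitochondrial share there was 1 across genotypes, 2 for the double heterozygotes against WT, 4 against Tak1ΔM/+, 0 against Tbk1+/- and 0 for the interaction. With the summed level of Y-linked genes there were 8 across genotypes, 7 for the double heterozygotes against WT, 9 for the triple mutants against the double heterozygotes and 6 for the interaction. Without the 5 libraries whose Tbk1 level went against the label, also chosen after seeing the data, there were 3 for the double heterozygotes against Tak1ΔM/+. The share of all genes tested that was called under each alternative is not given in this section. The counts, here and on leaving out libraries, therefore do not show a change particular to the 37 genes. The cause of these shifts was not tested.

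Leaving out 1 library at a time gave 3 to 10 genes across genotypes. For the double heterozygotes it gave 4 to 5 against WT, 3 to 5 against Tak1ΔM/+ (7 with all libraries) and 4 to 12 against Tbk1+/- (7). The triple mutants against the double heterozygotes gave 1 to 4 and the interaction 0 to 5. Tbk1+/- against WT gave 0 to 3, and Tbk1+/-;Ripk1D138N/D138N against Tbk1+/- 0 to 4. Tak1ΔM/+, Tbk1+/-;Ripk1D138N/D138N and the triple mutants against WT gave 0 each time.

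Libraries share replicate numbers. Deviations of the 45 same-numbered pairs correlated at a mean r of 0.008 (-0.239 to 0.221), against -0.004 (-0.263 to 0.397) for the 90 other pairs. Over 0.1 were 7 of the 45 and 6 of the 90, so a pairing of some libraries was not excluded. With the replicate block the counts were 4 across genotypes, 4 for the double heterozygotes against WT, 6 against Tak1ΔM/+ and 8 against Tbk1+/-, and 4 for the triple mutants against the double heterozygotes. The block ended the calls of Hexa against Tak1ΔM/+ (adjusted p = 0.0654) and of Ppt1 in the interaction (adjusted p = 0.0628; edgeR). With only the 4 genotypes of the interaction in the fit, Ppt1 was also not called (adjusted p = 0.0707). Depth limits the low genes most, such as Ctsk with 32 reads in its poorest library.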

Other observations

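Within Tbk1+/-, replicate 2 stood apart from replicates 1 and 3 for several of the 37 genes. These were chosen after their values were seen. Lipa was 1538, 2498 and 1235 CPM in replicates 1, 2 and 3, and Psap 2139, 3217 and 2120.1 CPM; WT lay at 2231, 2226 and 2342 CPM for Lipa and 3942, 3450.5 and 2915 CPM for Psap. Ctss was 2982, 4029.99 and 2744 CPM. In the opposite direction, Lamp1 was 2675, 1706 and 2231 CPM and Arsb 125, 60.3 and 137 CPM. Without replicate 2, edgeR called 3 of the 37 genes lower in Tbk1+/- than in WT, namely Psap, Sgsh and Lipa, against 0 with all libraries; 1.53% of all genes tested were then called lower. For the double heterozygotes against Tbk1+/- it then called 12 of 37, 6 lower and 6 higher, Tfeb among the latter, against 7; of all genes tested 9.34% were called lower and 7.47% higher. With 2 libraries left in that genotype, their spread is assumed to match that of the other genotypes.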
